A study of Mus musculus with 6 samples.

Results

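The 10 genes described here are the colony-stimulating factors and related haematopoietic growth factors, and their receptors, that were measured in mouse spinal cord after a crush. They were taken by gene symbol from the 36629 genes of the deposited tables. The set holds 3 ligands, Csf1, Kitl and Flt3l, and 7 receptors, Csf1r, Kit, Flt3, Csf2ra, Csf2rb, Csf2rb2 and Csf3r. All 10 were tested. Csf2rb and Csf2rb2 passed the filter on low values through the injured libraries, since no more than 1 sham library reached 1 FPKM for either gene. Some genes of the lists used below passed it in the same way, so counts of higher genes in those lists rest in part on the filter.

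Bulk RNA-seq was made from C57/BL6 mice aged 3 to 5 weeks. In the sham group (3 libraries) a laminectomy, the removal of vertebral bone over the cord, was made at T9 to T10 and the cord was left unhurt. In the spinal cord injury group (SCI, 3 libraries) the cord laid bare in the same way was crushed for 5 s with a vascular clip of 60 g. Cord from T8 to T12 was taken from both groups 3 days after surgery, and the labels give no transgene or drug for either group. Sham libraries thus also come from operated animals. The labels do not say whether each library came from a separate animal, so the p-values measure the spread between these libraries, which may be technical in part.

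Colony-stimulating factors are secreted proteins that keep myeloid cells alive and make them divide and mature. CSF1 and its partner ligand IL-34 bind CSF1R, a receptor tyrosine kinase on which microglia, the resident macrophages of the central nervous system, depend. KIT and FLT3 are close relatives of CSF1R and bind KITL (stem cell factor) and FLT3L. KIT is best known in mast cells, melanocytes and blood progenitors, and FLT3 in blood progenitors and dendritic cells. GM-CSF (Csf2) and G-CSF (Csf3) instead use cytokine receptors that have no kinase of their own and act through JAK kinases and STAT factors. The GM-CSF receptor pairs the alpha chain Csf2ra with the shared beta chain Csf2rb, and mice carry a further beta chain, Csf2rb2, that serves interleukin-3. Csf3r is the G-CSF receptor, known above all in neutrophils.

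Of the 10 genes, 7 were higher in SCI, 1 (Flt3) was lower and 2 (Flt3l and Kit) did not pass the threshold, by limma with Benjamini-Hochberg adjustment over all 17435 tested genes and an adjusted p under 0.05. Among all tested genes 26.7% were called higher, 30.8% lower and 57.5% either way. All 7 risen genes rose by at least 1 on the log2(FPKM + 1) scale, and 11% of all tested genes were both called higher and of that size. Flt3 fell by at least 1, and 5.19% of all tested genes were both called lower and of that size. The groups did not overlap for 8 of the 10 genes, against 67.6% of all tested genes. The median change of the 10 genes was 1.1 on the log2 scale, beside -0.08 for all tested genes. FPKM, the unit of the deposited tables, are fragments per kilobase of gene, scaled to the fragments of each library, and a log2 change here is always SCI minus sham of log2(FPKM + 1), which understates the change of low genes.

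**Figure D1:**
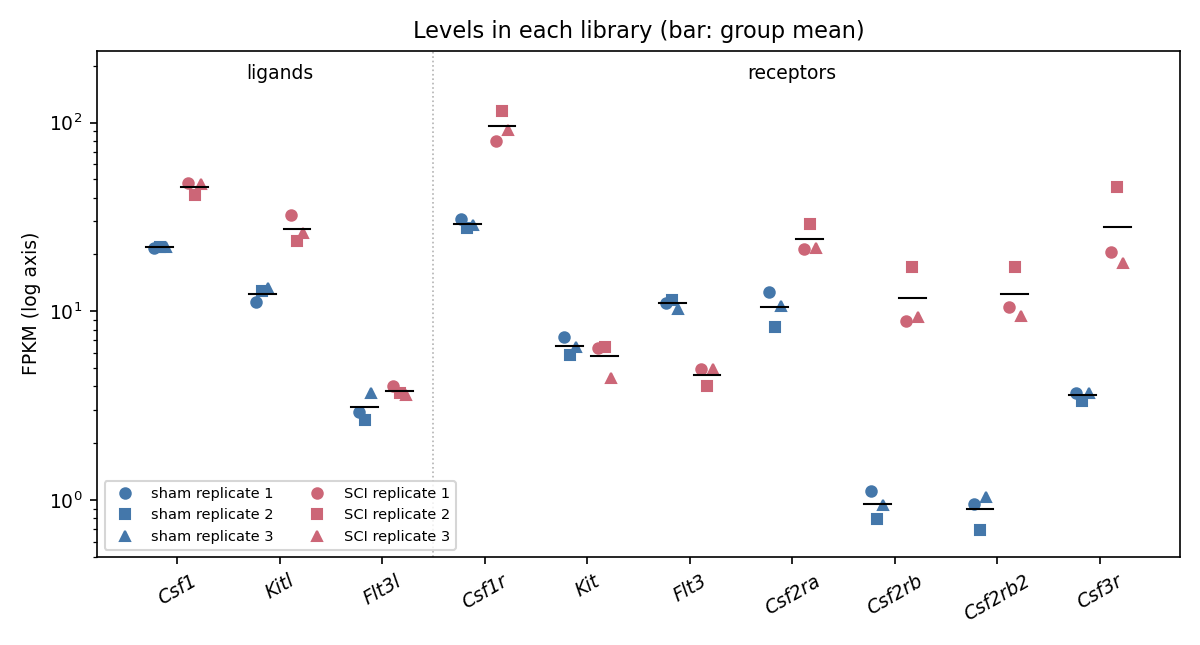
FPKM of the 3 ligand genes and 7 receptor genes on a log axis, with a point for each of the 3 sham and 3 SCI libraries and a bar at each group mean. The groups lie apart for 8 genes and overlap for Flt3l and Kit, and SCI replicate 2 is the highest point for Csf1r, Csf2ra, Csf2rb, Csf2rb2 and Csf3r.

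The libraries differed in makeup as well as in these genes. Summed FPKM lay between 716215 and 734791, and 16774 to 17202 genes reached 1 FPKM. Haemoglobin genes took 0.109% to 0.126% of the FPKM in sham. Their share in SCI was 0.656% in replicate 1, 6.16% in replicate 2 and 0.211% in replicate 3. Neuronal markers, which check the tissue, were abundant in all libraries, and their sum over 9 genes was 4897 to 5807 FPKM in sham and 1513 to 2630 FPKM in SCI. Because the tissue is a mix, more or fewer cells of a type and more or less RNA per cell cannot be told apart. The number of reads behind an FPKM value is unknown here.

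Among the ligands, Csf1 and Kitl rose more than 2-fold. Csf1, the growth factor of macrophages and microglia, lies on GRCm38 chr3:107741048-107760469, minus strand (ENSMUSG00000014599). It read 21.6, 21.9 and 21.9 FPKM in sham replicates 1, 2 and 3, and 47.8, 41.3 and 47.4 FPKM in SCI replicates 1, 2 and 3. The sham libraries were nearly identical, and every SCI library lay above all of them. The mean went from 21.8 ± 0.165 to 45.5 ± 3.66 FPKM (SD, n = 3 each), a 2.09-fold rise. On the log2 scale the change was 1.03 (SE 0.08, 95% interval 0.83 to 1.22, limma adjusted p = 9.0e-05), and 10.6% of all tested genes rose more.

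Kitl encodes stem cell factor, the ligand of KIT, and lies on chr10:100015630-100100416, plus strand (ENSMUSG00000019966). Its levels were 11.2, 12.7 and 13.3 FPKM in sham and 32.5, 23.6 and 26.1 FPKM in SCI. All SCI libraries were above all sham libraries, with SCI replicate 1 the highest. The mean rose 2.21-fold, from 12.4 ± 1.07 to 27.4 ± 4.62 FPKM (SD, n = 3 each). This was a log2 change of 1.07 (SE 0.13, 95% interval 0.77 to 1.38, limma adjusted p = 5.4e-04).

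Flt3l, the ligand of FLT3, was the ligand that did not pass the threshold. It lies on chr7:45129788-45136285, minus strand (ENSMUSG00000110206). The sham libraries held 2.94, 2.66 and 3.70 FPKM and the SCI libraries 4.04, 3.71 and 3.58 FPKM. The groups overlapped, with sham replicate 3 above SCI replicate 3. The means were 3.10 ± 0.538 and 3.78 ± 0.237 FPKM (SD, n = 3 each). The log2 change was 0.23 (SE 0.13, 95% interval -0.08 to 0.53, limma adjusted p = 0.17), an interval that does not exclude a small rise.

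Of the receptor tyrosine kinases, Csf1r had the highest level of the 10 genes in both groups. The gene lies on chr18:61100598-61131134, plus strand (ENSMUSG00000024621). It read 30.8, 27.6 and 28.6 FPKM in sham, and 79.8, 115 and 91.2 FPKM in SCI replicates 1, 2 and 3. All 3 SCI libraries were far above sham, and SCI replicate 2 was the highest. The mean rose 3.29-fold, from 29.0 ± 1.66 to 95.3 ± 18.0 FPKM (SD, n = 3 each). On the log2 scale the change was 1.67 (SE 0.13, 95% interval 1.35 to 1.98, limma adjusted p = 9.3e-05), and 5% of all tested genes rose more.

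Kit did not pass the threshold, although its ligand rose. Kit lies on chr5:75574916-75656722, plus strand (ENSMUSG00000005672). The sham libraries read 7.31, 5.90 and 6.49 FPKM and the SCI libraries 6.38, 6.5 and 4.42 FPKM. The groups overlapped, and only SCI replicate 3 lay below every sham library. The means were 6.57 ± 0.708 and 5.77 ± 1.17 FPKM (SD, n = 3 each). This was a log2 change of -0.17 (SE 0.15, 95% interval -0.53 to 0.19, limma adjusted p = 0.36).

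Flt3, the receptor for FLT3L, was the gene of the set that fell. It lies on chr5:147330741-147400489, minus strand (ENSMUSG00000042817). Sham libraries held 11.1, 11.5 and 10.3 FPKM and SCI libraries 4.93, 4 and 4.93 FPKM. Each SCI library lay below each sham library, with SCI replicate 2 the lowest. The mean in sham was 2.37 times that in SCI, 11.0 ± 0.573 against 4.62 ± 0.537 FPKM (SD, n = 3 each). The log2 change was -1.09 (SE 0.11, 95% interval -1.34 to -0.85, limma adjusted p = 2.1e-04), and 3.68% of all tested genes fell more. The antisense gene Gm26597 overlaps the start of Flt3, and the strand setting of the quantification is not given in the sources used here. Gm26597 was listed at 0.51, 0.26 and 0.40 FPKM in sham and 0.09, 0.15 and 0.16 FPKM in SCI, far below Flt3 in every library.

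**Figure D2:**
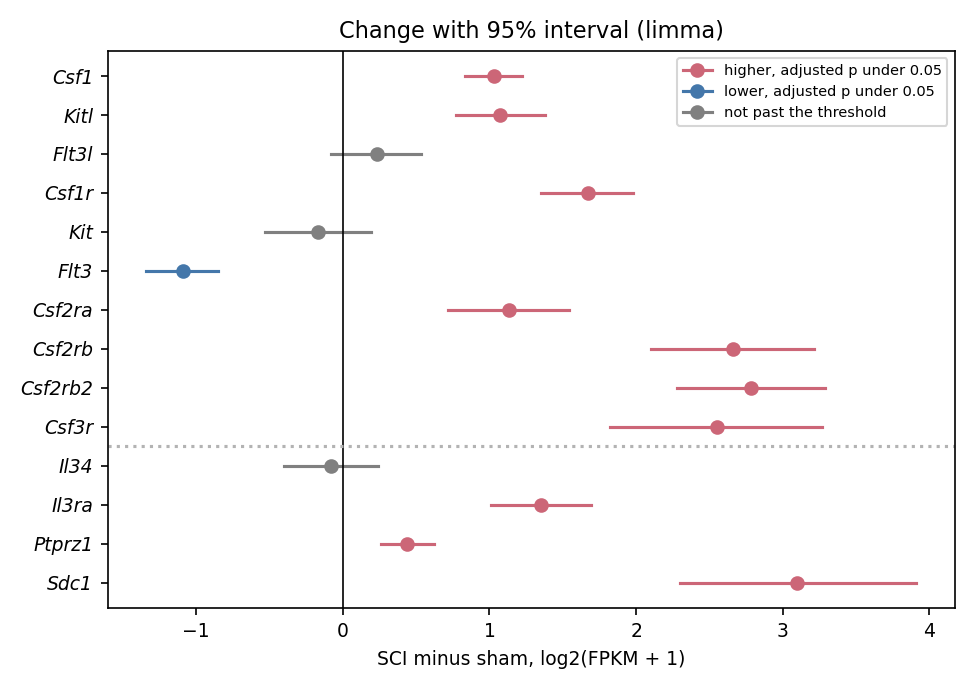
Change from sham to SCI on the log2(FPKM + 1) scale for the 10 ligand and receptor genes (above the dotted line) and for the 4 other tested ligands and receptors of the same pathways (below it), with limma's 95% interval. Flt3 lies below 0, the intervals of Flt3l, Kit and Il34 include 0, and the other intervals lie above 0.

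The alpha chain of the GM-CSF receptor, Csf2ra, rose as well, with a smaller log2 change than either beta chain. Csf2ra lies on chr19:61223957-61228429, minus strand (ENSMUSG00000059326). It read 12.7, 8.26 and 10.6 FPKM in sham and 21.5, 29.1 and 21.7 FPKM in SCI. The groups did not overlap, and SCI replicate 2 was the highest. The mean rose 2.29-fold, from 10.5 ± 2.22 to 24.1 ± 4.35 FPKM (SD, n = 3 each), a log2 change of 1.13 (SE 0.17, 95% interval 0.72 to 1.54, limma adjusted p = 0.0015).

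Csf2rb and Csf2rb2 are neighbours on chromosome 15 and close copies of each other, so reads can fit both. Csf2rb lies at chr15:78325752-78351001, plus strand (ENSMUSG00000071713), and Csf2rb2 at chr15:78282507-78305721, minus strand (ENSMUSG00000071714). Their coding sequences (GENCODE M21, GRCm38) are 2691 and 2637 bases long and match at 2505 of 2697 aligned columns, an identity of 92.9%. The pair below is the 90-base coding stretch in which they differ most, shown because reads over it can be told apart, with the 15 differing bases in capitals, 5′ to 3′ on each gene's strand. It covers coding bases 301 to 390 of Csf2rb (chr15:78338890-78338979, plus strand) and 304 to 393 of Csf2rb2 (chr15:78294352-78294441, minus strand).
Csf2rb: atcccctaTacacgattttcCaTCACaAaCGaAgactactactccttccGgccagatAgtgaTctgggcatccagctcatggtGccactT
Csf2rb2: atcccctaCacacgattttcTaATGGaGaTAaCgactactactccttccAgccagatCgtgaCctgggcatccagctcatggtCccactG
The next stretch is shown because it is the same in both genes, so that reads inside it fit either. It covers coding bases 664 to 753 of Csf2rb and 667 to 756 of Csf2rb2, over 2 exons each, which with the intron between them span chr15:78340785-78341363 (plus strand) and chr15:78291946-78292524 (minus strand).
both genes: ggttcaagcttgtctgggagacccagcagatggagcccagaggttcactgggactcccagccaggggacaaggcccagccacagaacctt
Of all 50-base windows of the Csf2rb coding sequence 26.3% were also in Csf2rb2, and 26.5% the other way. For 150-base windows the shares were 6.49% and 6.63%. How the quantification shared out reads that fit both genes is not given in the sources used here, so the split between these genes is uncertain.

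Csf2rb, the shared signalling chain of the GM-CSF, interleukin-3 and interleukin-5 receptors, was near 1 FPKM in sham. It read 1.12, 0.79 and 0.94 FPKM in sham and 8.88, 17.1 and 9.32 FPKM in SCI. The groups lay far apart, and SCI replicate 2 held 1.88 times the mean of the other SCI libraries. The mean went from 0.95 ± 0.165 to 11.8 ± 4.64 FPKM (SD, n = 3 each), a 12.4-fold rise. On the log2 scale the change was 2.66 (SE 0.24, 95% interval 2.10 to 3.21, limma adjusted p = 1.4e-04), and 1.66% of all tested genes rose more. On the log2(FPKM + 0.1) scale, which compresses low values less, the change was 3.44.

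Csf2rb2 followed the same course. Sham libraries read 0.95, 0.69 and 1.04 FPKM and SCI libraries 10.5, 17.2 and 9.48 FPKM, again with SCI replicate 2 the highest and no overlap. The mean rose 13.9-fold, from 0.893 ± 0.182 to 12.4 ± 4.21 FPKM (SD, n = 3 each). This was a log2 change of 2.78 (SE 0.22, 95% interval 2.28 to 3.29, limma adjusted p = 8.1e-05). With the FPKM of both genes added, a sum in which a shared read counts whichever copy it was given to, the log2 change was 3.10 (limma adjusted p = 6.9e-05). The log2 ratio of Csf2rb to Csf2rb2 was 0.12, 0.08 and -0.07 in sham and -0.22, -0.01 and -0.02 in SCI. Those ratios overlapped between the groups (difference -0.13, two-sided exact permutation p = 0.3, adjusted over 4 ratios 0.3).

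The balance of beta to alpha chain was tested as well. The log2 ratio of Csf2rb to Csf2ra was -2.69, -2.37 and -2.58 in sham and -1.18, -0.73 and -1.14 in SCI. By RNA, every SCI library had more Csf2rb per Csf2ra than every sham library, though Csf2ra remained higher than Csf2rb in all 6. The difference was 1.53 (two-sided exact permutation p = 0.1, adjusted over 4 ratios 0.133). With 3 libraries a group this test cannot give a p below 0.1. The ratio leaves out Csf2rb2, and the split of reads between Csf2rb and Csf2rb2 is uncertain. In SCI replicate 2 Csf2rb and Csf2rb2 read 17.1 and 17.2 FPKM beside 29.1 FPKM for Csf2ra, so Csf2ra was not above both beta chains added together there.

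Csf3r, the G-CSF receptor, varied most between the injured libraries. It lies on chr4:126024550-126044440, plus strand (ENSMUSG00000028859). Sham libraries held 3.71, 3.36 and 3.67 FPKM, and SCI libraries 20.6, 45.5 and 18.0 FPKM. All SCI libraries lay well above sham, and SCI replicate 2 held 2.36 times the mean of the other SCI libraries. The mean rose 7.83-fold, from 3.58 ± 0.192 to 28.0 ± 15.2 FPKM (SD, n = 3 each), with a coefficient of variation of 54.2% in SCI. The log2 change was 2.55 (SE 0.31, 95% interval 1.82 to 3.27, limma adjusted p = 5.6e-04). Without SCI replicate 2 it was 2.15 (limma adjusted p = 4.5e-05).

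**Figure D3:**
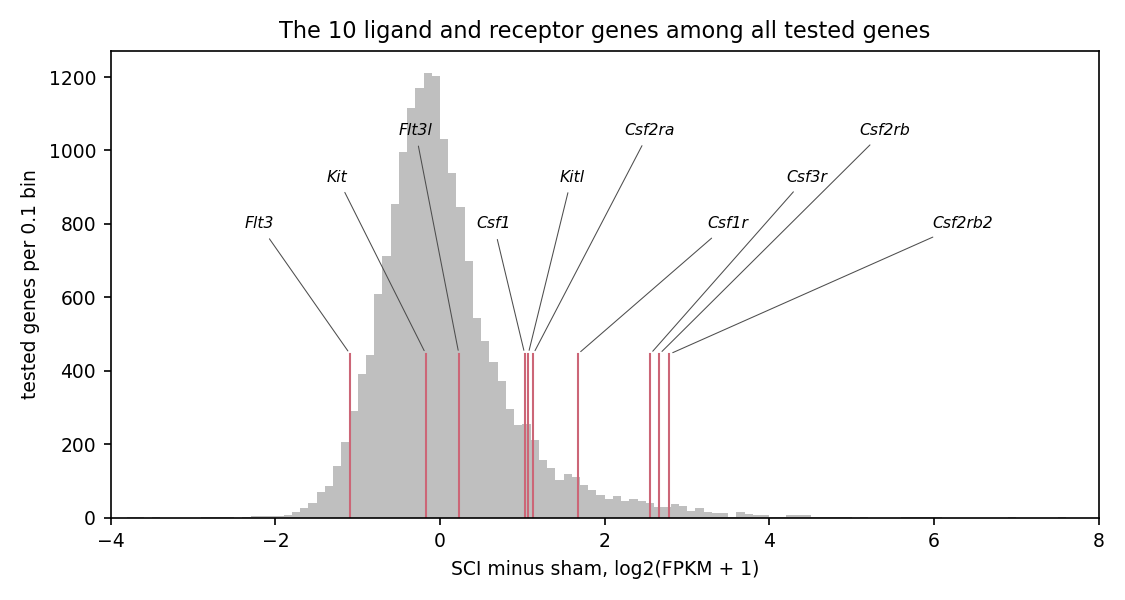
Number of tested genes per 0.1-wide bin of change from sham to SCI on the log2(FPKM + 1) scale, with a red line at each of the 10 ligand and receptor genes. Csf3r, Csf2rb and Csf2rb2 lie in the upper tail, Csf1, Kitl and Csf2ra near 1, Flt3l and Kit near the bulk, and Flt3 in the lower part.

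The order of the levels changed between the groups. In sham it ran Csf1r, Csf1, Kitl, Flt3, Csf2ra, Kit, Csf3r, Flt3l, Csf2rb and Csf2rb2. In that order Kitl and Flt3, Flt3 and Csf2ra, Csf3r and Flt3l, and Csf2rb and Csf2rb2 overlapped as neighbours. In SCI it ran Csf1r, Csf1, Csf3r, Kitl, Csf2ra, Csf2rb2, Csf2rb, Kit, Flt3 and Flt3l. There the range of Csf3r reached from 18.0 to 45.5 FPKM and overlapped those of Csf1, Kitl and Csf2ra, so their order is not settled. Csf2rb2 and Csf2rb overlapped, as did Kit and Flt3, and Flt3 and Flt3l.

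The remaining ligands and receptors of these pathways were few and mostly low. Of 9 listed genes 8 had a value and 4 were tested, of which 3 were higher and 1 did not pass. Il34, the other CSF1R ligand, read 15.0, 14.6 and 18.1 FPKM in sham, and 17.9, 13.7 and 13.5 FPKM in SCI. The groups overlapped, with a log2 change of -0.08 (SE 0.14, 95% interval -0.40 to 0.24, limma adjusted p = 0.63). The log2 ratio of Csf1 to Il34 was 0.50, 0.55 and 0.26 in sham and 1.36, 1.53 and 1.74 in SCI. Csf1 was the more abundant ligand in every library, and by more in every SCI library (difference 1.11, two-sided exact permutation p = 0.1, adjusted over 4 ratios 0.133).

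The ligands of the GM-CSF and G-CSF receptors were at the edge of detection. Csf2 was listed at 0 FPKM in all 6 libraries. Csf3 was listed at 0 in every sham library and read 0.51, 1.05 and 0.28 FPKM in SCI 1, 2 and 3 (two-sided exact permutation p = 0.1), so that SCI replicate 2 was the highest for both Csf3 and Csf3r. Il5 read 0.20, 0.32 and 0.39 FPKM in sham and 0.08, 0 and 0.24 FPKM in SCI, which overlapped. Il3ra, the interleukin-3 receptor alpha chain, rose from 1.48 ± 0.234 to 5.33 ± 0.850 FPKM (SD, n = 3 each), a log2 change of 1.35 (SE 0.15, limma adjusted p = 3.4e-04). Il5ra did not exceed 0.10 FPKM in any library. Ptprz1 and Sdc1, both reported as further binding partners of IL-34, also rose. Ptprz1 went from 24.2 ± 0.450 to 33.1 ± 2.20 FPKM (SD, n = 3 each; log2 change 0.44, limma adjusted p = 0.0026). Sdc1 went from 1.9 ± 0.39 to 26.0 ± 13.7 FPKM (SD, n = 3 each; log2 change 3.10, limma adjusted p = 3.7e-04).

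Downstream genes of the receptors mostly rose. Of 17 genes listed for signalling by CSF1R, KIT and FLT3, 13 were higher, none lower and 4 did not pass, with a median log2 change of 1.62. Tyrobp, a membrane adaptor that works with CSF1R in microglia, rose from 31.9 ± 4.66 to 265 ± 50.4 FPKM (SD, n = 3 each; log2 change 3.01, limma adjusted p = 1.8e-05). Vav1, an exchange factor of blood cells, rose by 2.97 on the log2 scale (limma adjusted p = 1.2e-05). Grb2, an adaptor that nearly all cells use, read 96.3 ± 1.54 and 90.9 ± 7.41 FPKM (SD, n = 3 each; log2 change -0.09, limma adjusted p = 0.38).

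Of 13 genes listed for JAK and STAT signalling by the GM-CSF and G-CSF receptors, 12 were tested. Of these 8 were higher, 1 was lower and 3 did not pass, with a median log2 change of 0.66. Socs3, a feedback inhibitor of G-CSF and IL-6 family receptors, rose from 2.25 ± 0.180 to 62.4 ± 16.2 FPKM (SD, n = 3 each; log2 change 4.25, limma adjusted p = 1.2e-05). Mcl1, a survival factor of myeloid cells, rose by 1.72 (limma adjusted p = 1.8e-05). Jak1 was the lower gene (log2 change -0.23, limma adjusted p = 0.022). That call ended under median-ratio scaling, under the replicate block and when sham 1, sham 2 or SCI 1 was left out.

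Transcription factors of the myeloid line rose with the receptors. Of 10 listed 8 were tested, with 6 higher, none lower and 2 not past the threshold, and a median log2 change of 2.19. Spi1 encodes PU.1, a factor that myeloid receptor genes including Csf1r are known to need. It rose from 2.44 ± 0.0624 to 20.7 ± 3.39 FPKM (SD, n = 3 each; log2 change 2.64, limma adjusted p = 1.4e-05). Cebpb rose by 2.59 (limma adjusted p = 6.8e-04).

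Start regions of 8 of the 10 genes were searched for letters that PU.1 and STAT factors are known to bind. RefSeq promoters (GRCm38.p6) were used, and the 250 bases before the RefSeq start were read. Csf1r and Csf2rb were not searched. GAGGAA, the core of PU.1 sites, which holds the GGAA core common to the ETS family, was searched on both strands. It was present for 4 of 8 genes, Kit, Csf2ra, Csf2rb2 and Csf3r, and in 23.1% of the same windows of 27025 genes. TTCNNNGAA, the letters of STAT sites, reads the same on both strands and was present for Csf2rb2, against 7.18% of all windows. The last 150 bases before the RefSeq start are shown for Csf2ra (chr19:61228419-61228568, minus strand) and Csf2rb2 (chr15:78305722-78305871, minus strand), risen genes with a match there. Capitals mark the matches, which are GAGGAA in Csf2ra and TTCNNNGAA in Csf2rb2.
Csf2ra: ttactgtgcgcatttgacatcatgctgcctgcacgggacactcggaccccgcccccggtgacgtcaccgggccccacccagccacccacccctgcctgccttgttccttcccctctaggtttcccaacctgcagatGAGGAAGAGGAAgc
Csf2rb2: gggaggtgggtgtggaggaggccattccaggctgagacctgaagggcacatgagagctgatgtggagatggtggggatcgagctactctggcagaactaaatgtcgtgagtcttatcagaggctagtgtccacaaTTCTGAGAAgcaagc
Counted back from the RefSeq start as negative positions, Csf2ra held 2 matches side by side at -14 and -8. The match of Csf3r began at -86. RefSeq starts can differ from the gene boundaries that the files list. This match of Csf3r and the Csf2ra match at -8 lie inside the genes as listed, and the Csf2ra match at -14 lies partly inside. The STAT match of Csf2rb2 began at -15, and its GAGGAA at -167, outside the stretch shown. Kit, which did not pass the threshold, had its match at -223. Such a match describes the letters of the window and not a bound site.

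Markers of several cell types moved with the groups, and their part in the changes of the 10 genes was not tested. Of 12 microglial markers 10 were higher, none lower and 2 did not pass, and their sum was 216 to 237 FPKM in sham and 743 to 914 FPKM in SCI. Fcrls and Olfml3, both typical of microglia, rose by 3.44 and 2.84 on the log2 scale (limma adjusted p = 1.2e-05 for each). The 2 that did not pass were Siglech (log2 change -0.25, limma adjusted p = 0.1) and Slc2a5 (-0.23, limma adjusted p = 0.35), and Sall1 rose by 0.24, a call that was lost in 8 alternatives. Set against the mean of these 12 markers, the log2 ratio of Csf1r was 1.46, 1.25 and 1.17 in sham and 1.49, 1.74 and 1.48 in SCI. Every SCI ratio lay just above every sham ratio (difference 0.28, two-sided exact permutation p = 0.1, adjusted over 4 ratios 0.133). With a pseudocount of 0.1 the difference was 0.25 (two-sided exact permutation p = 0.3), above the smallest p the design allows.

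All 13 markers of monocytes and macrophages were higher, and 12 of them were highest in SCI replicate 2, as 5 of the 7 risen receptor and ligand genes were. Other lists shared this, with all 7 genes of dividing cells, all 5 blood genes and 13 of the 17 signalling genes highest there. For endothelial markers it was 3 of 9 and for astrocyte markers 3 of 8. The share over all tested genes was not counted. The monocyte and macrophage markers summed to 136 to 188 FPKM in sham, and 1649.8, 2881 and 1878 FPKM in SCI replicates 1, 2 and 3. Arg1 and Clec4d, both known in activated macrophages, rose by 7.53 and 4.88 on the log2 scale (limma adjusted p = 3.4e-05 and 1.9e-05). Several of the 13, Arg1 and Clec4d among them, were below 1 FPKM in every sham library. They passed the filter on low values through SCI, so they were tested only because they were high there. With a filter of 5 FPKM 8 of the markers were higher.

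Csf3r was highest in SCI replicate 2 and lowest in SCI replicate 3, and so was the sum of the neutrophil markers. This order was not theirs alone, since Csf2rb2, Socs3, the haemoglobin genes and some macrophage markers, such as Arg1 and Clec4d, had it too. Of 13 neutrophil markers 10 were tested, with 9 higher and 1 not past the threshold, and all 10 were highest in SCI replicate 2. The number called higher was not firm. It was 6 without sham replicate 2, 10 without SCI replicate 3, and 3 with a filter of 5 FPKM, which fewer markers pass. Their sum over the 13 was 57.6, 35.5 and 28.0 FPKM in sham and 307, 725 and 155 FPKM in SCI replicates 1, 2 and 3. S100a8 and S100a9, genes that neutrophils express abundantly, rose by 3.90 and 3.33 on the log2 scale (limma adjusted p = 0.0011 and 0.0022). Levels of these markers in sham were mixed. Cxcr2 was at most 0.11 FPKM and Stfa2l1 was listed at 0 in all 3 sham libraries, while S100a9 read 24.1, 10.4 and 9.62 FPKM and S100a8 read 9.67, 5.55 and 2.68 FPKM. Cxcr2 and Stfa2l1 thus passed the filter on low values only through SCI. The sum of the neutrophil markers differed more between the SCI libraries than Csf3r did, at 7.61, 18 and 3.83 times the sham mean against 5.75, 12.7 and 5.03 times for Csf3r.

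**Figure D4:**
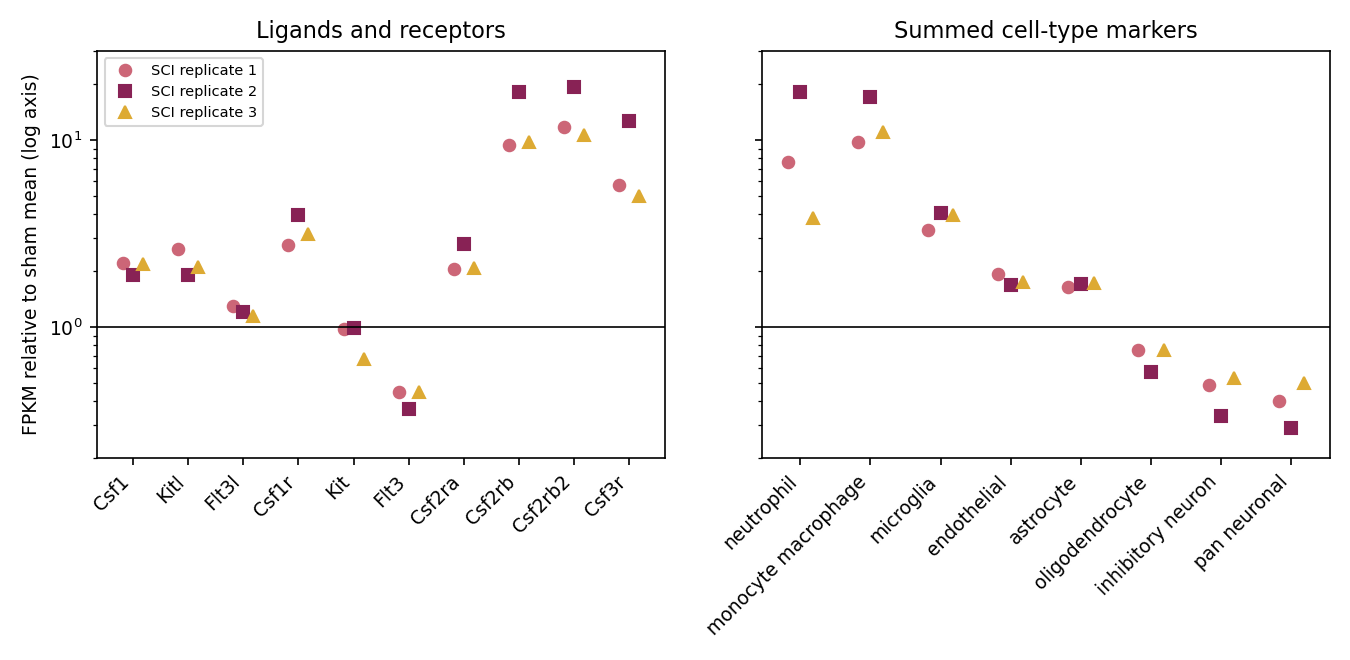
FPKM of each SCI library divided by the sham mean, on a log axis, for the 10 ligand and receptor genes (left) and for summed markers of 8 cell types (right), with 1 symbol per SCI library and a line at 1. SCI replicate 2 is highest for Csf1r, Kit, Csf2ra, Csf2rb, Csf2rb2, Csf3r and the neutrophil, monocyte and microglia sums. It is lowest for Csf1, Kitl, Flt3 and the endothelial, oligodendrocyte and neuronal sums.

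Markers of the cell types for which FLT3 and KIT are best known were mostly low, with some present in all libraries. Of 10 dendritic cell markers 4 were tested, with 2 higher and 2 not past the threshold. The number called higher was 5 with no filter on low values and 0 with a filter of 5 FPKM. The sum of the 10 was 4.90 to 7.17 FPKM in sham and 10.3 to 12.1 FPKM in SCI, while Flt3 was lower in SCI. Not every marker rose with that sum. Zbtb46 and Batf3 did not pass (log2 changes -0.05 and 0.08, limma adjusted p = 0.78 and 0.76). Irf4 read 0.54, 0.27 and 0.20 FPKM in sham and 0.14, 0.07 and 0.15 FPKM in SCI. Xcr1, which marks a dendritic cell subset, was listed at 0 in all 3 sham libraries, while Zbtb46, a transcription factor of dendritic cells, read 2.45, 1.83 and 2.85 FPKM there. Itgax rose by 0.96 and Clec10a by 0.74 on the log2 scale (limma adjusted p = 0.0016 and 0.0078). Of the mast cell markers, 8 had a value and 2 were tested, with Gata2 higher (log2 change 0.60, limma adjusted p = 0.0092) and Hdc not past the threshold. Cpa3, Cma1, Mcpt4, Tpsb2, Tpsab1 and Ms4a2, genes of mast cell granules and of their IgE receptor, did not exceed 0.28 FPKM in any library. The pigment cell genes Dct, Tyr and Tyrp1 did not exceed 0.26 FPKM. Mitf, a transcription factor that pigment cells share with other cell types, read 5.32 to 6.13 FPKM in sham and 5.97 to 6.3 FPKM in SCI, and Pmel at most 1.34 FPKM. Neither Mitf nor Pmel passed the threshold. The part of these cell types in the levels of Flt3 and Kit was not tested.

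Most neuronal markers fell. All 8 markers of inhibitory neurons were lower, with a median log2 change of -0.94, and their sum went from 492 to 538 FPKM in sham to 174 to 280 FPKM in SCI. Of 9 general neuronal markers 8 were lower and 1 did not pass, with a median of -1.15, and all 9 were lowest in SCI replicate 2. Flt3 was also lowest in SCI replicate 2, and so were all 6 oligodendrocyte markers and the risen Csf1 and Kitl, while Kit was not. Slc32a1, the vesicular transporter of inhibitory neurons, fell by 1.38, and Nefh, a neurofilament, fell by 2.00 on the log2 scale (limma adjusted p = 6.6e-04 and 4.9e-04). The part of neuronal or oligodendrocyte transcripts in the fall of Flt3 was not tested.

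**Figure D5:**
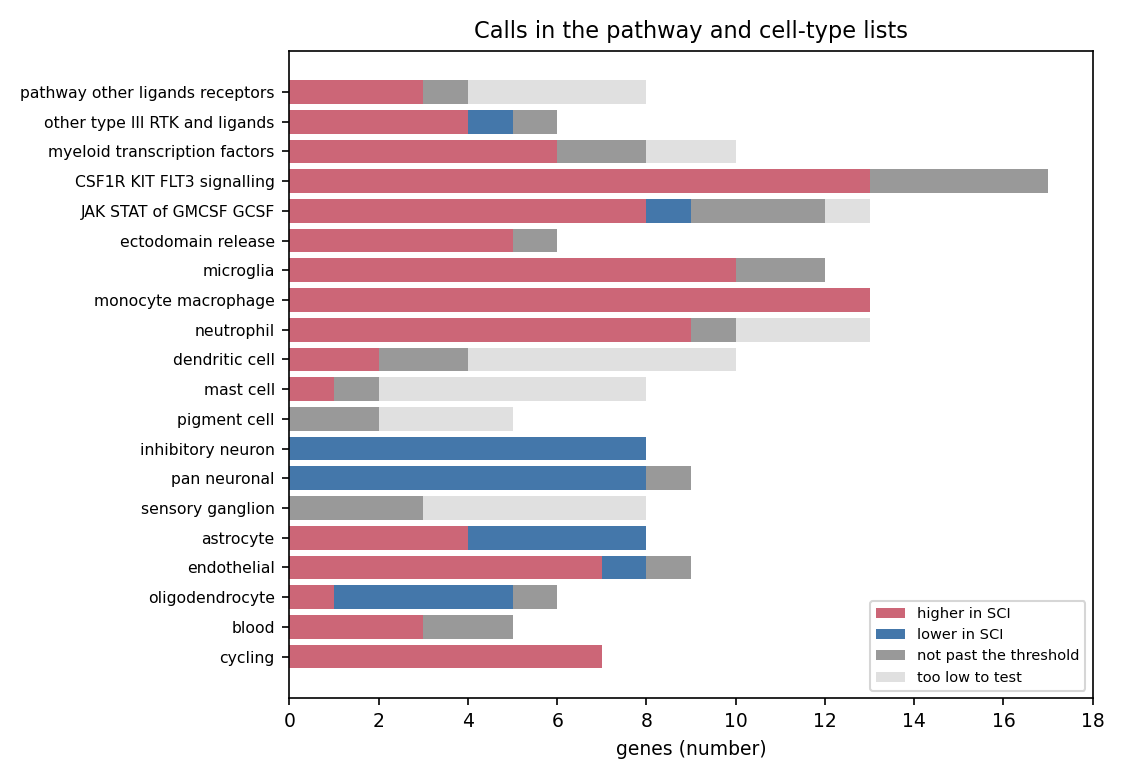
Number of genes per list that were higher in SCI, lower in SCI, not past the threshold, or too low to test, by limma at an adjusted p under 0.05. The signalling and myeloid lists are mostly higher, both neuronal lists are lower, and the mast cell, pigment cell and dendritic cell lists are mostly too low to test.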

How the data were processed

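Polyadenylated RNA of 6 libraries (3 sham, 3 SCI) was sequenced with strand marking and molecular identifiers in the adapters, per the labels' protocols. The authors deposited 1 FPKM value per gene and library, per the file headers, with gene coordinates. Tools named by the submitters' processing notes, without roles, are HISAT2 2.0.4, StringTie 1.3.4d, cutadapt 1.9, UMI-tools, edgeR and DESeq2, and the build named is mm9. Of 36502 gene identifiers shared with GENCODE M21, 32204 (88.2%) have the same GRCm38 coordinates, so GRCm38 is the build given here.

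FPKM are not counts, and a search for steps of whole reads found none (the fullest bin held at most 4.55% of low genes), so no count test was run. The values log2(FPKM + 1) of the 17435 genes that reached 1 FPKM in 3 or more libraries were fitted with limma 3.58.1 (R 4.3.3, mean-variance trend, group as the term, all 6 libraries) and adjusted by the Benjamini-Hochberg method over all of them, with 0.05 as threshold. The script was tested on simulated data. Ratios and genes too low to fit were compared by exact permutation over libraries.

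The members and lists were chosen with earlier results of these data known. Named were the 10 members, the other ligands and receptors of their pathways, from each other list the 2 called genes of largest change and the 2 of highest mean, and for Csf1, Csf1r, Csf3r and Kit the 3 genes of most similar profile. Not every gene that this rule names is reported here. Defining markers of other cell types (Siglech, Slc2a5, Sall1, Cxcr2, Stfa2l1, Xcr1, Batf3, Irf4, Cpa3, Cma1, Mcpt4, Tpsb2, Tpsab1, Ms4a2, Dct, Tyr, Tyrp1 and Mog) and the genes Gm26597 and Mmp9 were named after their values were seen. Alternatives were a pseudocount of 0.1, no filter, a filter of 5 FPKM, median-ratio scaling, quantile normalization, removal of mitochondrial and haemoglobin genes, no trend, a replicate block and leaving out each library. Adding Csf2rb to Csf2rb2 was chosen after seeing the data.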

Additional observations from a re-analysis of the deposited data

How the results depend on the processing

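Each of the 10 genes kept its direction and its side of the threshold in limma under every alternative run, 14 for most, 13 for Flt3l (below a filter of 5 FPKM) and 15 for Csf2rb. Log2 changes ranged from 0.99 to 1.11 for Csf1, 0.95 to 1.17 for Kitl, 1.53 to 1.79 for Csf1r, -1.24 to -1.01 for Flt3, 0.98 to 1.26 for Csf2ra, 2.38 to 3.44 for Csf2rb, 2.54 to 3.62 for Csf2rb2 and 2.15 to 2.81 for Csf3r. Flt3l (0.09 to 0.33) and Kit (-0.28 to -0.02) stayed short of it, with lowest limma adjusted p of 0.077 and 0.16. The ratio of Csf2rb to Csf2ra moved from 1.53 to 2.25 on the log2 scale with a pseudocount of 0.1, which weighs values near 1 FPKM more. Median-ratio scaling shifted the median change of all genes by 0.08 and changed their calls to 5378 higher and 4842 lower, from 4653 and 5371. Quantile normalization gave 4389 higher and 6360 lower. Without each library in turn, 4067 to 4709 genes were higher and 4136 to 5222 lower. Replicate numbers did not pair the samples, since the deviations of same-numbered libraries correlated at -0.008, -0.039 and 0.022. With the replicate block 4398 genes were higher and 5045 lower, and no call among the 10 genes changed. Depth is unknown, so what it limits cannot be stated for genes near 0 such as Csf2 and Csf3.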

Other observations

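The platelet-derived growth factor receptors, of the same kinase class as CSF1R, KIT and FLT3, both rose. Pdgfra went from 10.5 ± 1.14 to 28.0 ± 2.23 FPKM (SD, n = 3 each; log2 change 1.34, limma adjusted p = 8.4e-05), and Pdgfrb from 11.1 ± 1.63 to 25.6 ± 6.26 FPKM (log2 change 1.12, limma adjusted p = 0.0018). Of their 6 listed genes 4 were higher, 1 was lower and 1 did not pass. The number higher was 3 with no filter on low values and 5 with median-ratio scaling. The lower one was the ligand Pdgfd, which went from 24.4 ± 2.05 to 9.58 ± 1.10 FPKM (SD, n = 3 each; log2 change -1.26, limma adjusted p = 1.2e-04).

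Genes that act in the release of ligands and receptors such as CSF1, KITL and CSF1R from the cell surface, or inhibit it, were listed as well. Of 6, 5 were higher, among them the inhibitor Timp3, and Mmp9 did not pass. Adam10, a membrane protease, went from 47.2 ± 5.17 to 79.8 ± 6.64 FPKM (SD, n = 3 each; log2 change 0.75, limma adjusted p = 0.001). Rhbdf1 and Rhbdf2, which bring the protease ADAM17 to the surface, rose by 1.22 and 1.42 on the log2 scale (limma adjusted p = 1.5e-04 and 8.1e-04). Timp3, a protease inhibitor, rose by 0.72 (limma adjusted p = 0.0083).

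Other markers moved too. All 7 genes of dividing cells were higher, with sums of 4.49 to 5.91 FPKM in sham and 166 to 236 FPKM in SCI. Several of them, such as Top2a, passed the filter on low values only through SCI. Of 9 endothelial markers 7 were higher and 1 was lower. The 8 astrocyte markers split evenly, 4 higher and 4 lower, and without sham replicate 3 there were 2 lower. Of 6 oligodendrocyte markers 4 were lower and 1 was higher, and the higher call was lost in 6 alternatives. Of the lower calls, that of Mog was lost in 7 alternatives and that of Mbp in 1. With no filter on low values 2 oligodendrocyte markers were lower. Of 5 blood genes 3 were higher, and none without sham replicate 1, 2 or 3 or without SCI replicate 1. Of 8 sensory ganglion markers 3 were tested and none passed the threshold, but Avil was listed at 17.3 FPKM in SCI replicate 3 and at 0.50 FPKM or less in the other 5 libraries.

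Profiles like those of the ligands and receptors were searched among 11833 genes with a mean of at least 5 FPKM, by the root mean square difference over the 6 libraries of log2(FPKM + 1) after each gene's sham mean was subtracted, which compares changes and not levels. Nearest to Csf1 were Nr2c2ap (0.0498), Clu (0.0554) and Cenpt (0.0565). Nearest to Csf1r were Rap1b (0.0711), Itga7 (0.0754) and Vamp8 (0.0862). Rgs16 (0.0824), Hk2 (0.0977) and Tent5c (0.148) lay nearest to Csf3r, and Gcat (0.081), Rsph1 (0.0895) and P3h4 (0.0896) to Kit. These describe 6 libraries in 2 groups and carry no test.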
